A study of Mus musculus with 5 samples.

Results

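The genes described here encode the machinery of N6-methyladenosine (m6A), the commonest internal modification of mRNA. They are 10 genes chosen by name: the 5 YTH readers Ythdf1, Ythdf2, Ythdf3, Ythdc1 and Ythdc2, the 3 writers Mettl3, Mettl14 and Wtap, and the 2 erasers Alkbh5 and Fto. They stand among 21896 protein-coding genes of the RefSeq annotation, and all 10 were found in it. The data are peaks, stretches of RNA enriched after pulling down PABPC1, the cytoplasmic poly(A)-binding protein, or CCT3, part of the protein-folding chaperonin TRiC/CCT. The assay was eCLIP, in which crosslinked RNA is immunoprecipitated with the protein and compared with input RNA of the same lysate. All 5 samples are labelled as GC-2spd(ts), mouse spermatocyte cells, and carry no further treatment in the labels. They were 1 PABPC1 immunoprecipitation, 2 CCT3 immunoprecipitations, 1 PABPC1 input and 1 CCT3 input. The line derives from spermatocytes immortalised with a viral T antigen and a temperature-sensitive p53.

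In m6A biology, METTL3 is the catalytic methyltransferase, METTL14 is its partner in RNA binding, and WTAP anchors the complex. The YTH domain of the readers holds the methylated base. YTHDF proteins act in the cytoplasm on mRNA decay and translation, and YTHDC1 acts in the nucleus on splicing and export. YTHDC2 is an RNA helicase that mouse germ cells need for meiosis, and ALKBH5, which removes the mark, is needed for normal mouse spermatogenesis. FTO also demethylates adenosines in RNA. The results below concern the transcripts of these genes as targets of PABPC1 and CCT3, not the activity of their proteins and not m6A, which was not measured.

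There are 3 peak lists, 1 for each immunoprecipitation, called PABPC1, CCT3 and CCT3-2, with 14092, 10916 and 18650 peaks. The CCT3-2 sample carries the same library name as CCT3, so whether these lists are independent is not known, and they were kept apart. Each peak has the authors' log2 fold, taken as immunoprecipitation over input, and their −log10 p. There is 1 CCT3 input among the samples and none labelled for CCT3-2, so which input its folds rest on is not known. The reads behind a peak are not known, for want of library totals, and with 1 PABPC1 list the proteins cannot be compared against replicate error. A gene without a peak is therefore not shown to be unbound or unexpressed. Of 28 markers of testicular cell types, 24 had PABPC1 peaks by listed name (22.5% of all protein-coding genes did), 2 had CCT3 peaks (9.14%) and 2 had CCT3-2 peaks (12%). For the labelled cell type those counts were 5, 0 and 0 of 7 spermatocyte markers. They were 5, 0 and 0 of 5 spermatid markers, and the same of 5 fibroblast markers. They were 4, 1 and 1 of 6 Sertoli cell markers and 5, 1 and 1 of 5 Leydig cell markers, where the CCT3 and CCT3-2 peaks listed for Cyp17a1 and the 2 PABPC1 peaks listed for Star lie outside their spans. The 3 PABPC1 peaks listed for Prm2, a spermatid marker, and the 1 listed for Dmc1, a spermatocyte marker, lie outside their spans too. Both spans hold PABPC1 peaks listed under other genes. By span and strand PABPC1 had peaks in 4 of 5 Leydig cell, 5 of 5 spermatid and 6 of 7 spermatocyte markers. The labels name 1 cell line, yet PABPC1 peaks were listed for markers of the other cell types too, while few markers had CCT3 peaks. Whether the RNA of the PABPC1 and CCT3 samples came from like cells was not tested. The part of such differences in source RNA in the results below was not tested either. In bulk lysates fewer cells of a type and less RNA per cell cannot be told apart. All intervals are Wilson 95% intervals for counting error only, and neighbouring peaks are not independent.

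PABPC1 peaks were found in the 3′ UTRs of 8 of the 10 genes. CCT3 peaks were found in 4 reader genes and in an intron of Fto, all 1438 bases or more before the end of the gene. Of these, 3 in Ythdf2 and 15 in Ythdc1 were annotated as 3′ UTR too, those in Ythdc1 at least 7197 bases before the end. By the gene named in the authors' table, 5 of the 10 genes had a PABPC1 peak (Ythdf2, Ythdc1, Ythdc2, Mettl14 and Alkbh5), with 25 peaks in all. The same held for 22.5% of all protein-coding genes. By listed name 5 genes also had a CCT3 peak (Ythdf1, Ythdf2, Ythdf3, Ythdc1 and Fto), with 50 peaks in all, against 9.14% of protein-coding genes. The same 5 genes had a CCT3-2 peak, with 74 peaks, against 12% of protein-coding genes. The 10 genes were chosen with these counts known, and genes that are not expressed lower all such percentages, so the counts are a description. Ythdf2 and Ythdc1 were listed for both proteins, as were 3.1% of protein-coding genes for PABPC1 and CCT3 and 4.05% for PABPC1 and CCT3-2.

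The listed name misses 3 of the genes in the PABPC1 list, because the table names the gene with the nearest transcription start. Inside the RefSeq span of Ythdf1 lay 2 PABPC1 peaks listed as Mir124a-3. The span of Wtap held 4 listed as Acat2, and the end of Fto held 1 listed as Irx3. All 7 were annotated as 3′ UTR and lay on the strand of the gene that holds them. By position, then, 8 of the 10 genes had a PABPC1 peak (25.8% of protein-coding genes by span on either strand), with 32 peaks in all. Ythdf3 and Mettl3 had none. Over the whole list, 31.5% of PABPC1 peaks lay outside the RefSeq span of their listed gene. The CCT3 counts were the same by name and by position (9.59% of protein-coding genes by span on either strand), as were the CCT3-2 counts (12.3%). By position, Ythdf1, Ythdf2, Ythdc1 and Fto had peaks of PABPC1 and of CCT3, as did 3.68% of protein-coding genes on either strand. With CCT3-2 in place of CCT3 they were again these 4 genes, against 4.66%.

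**Figure D1:**
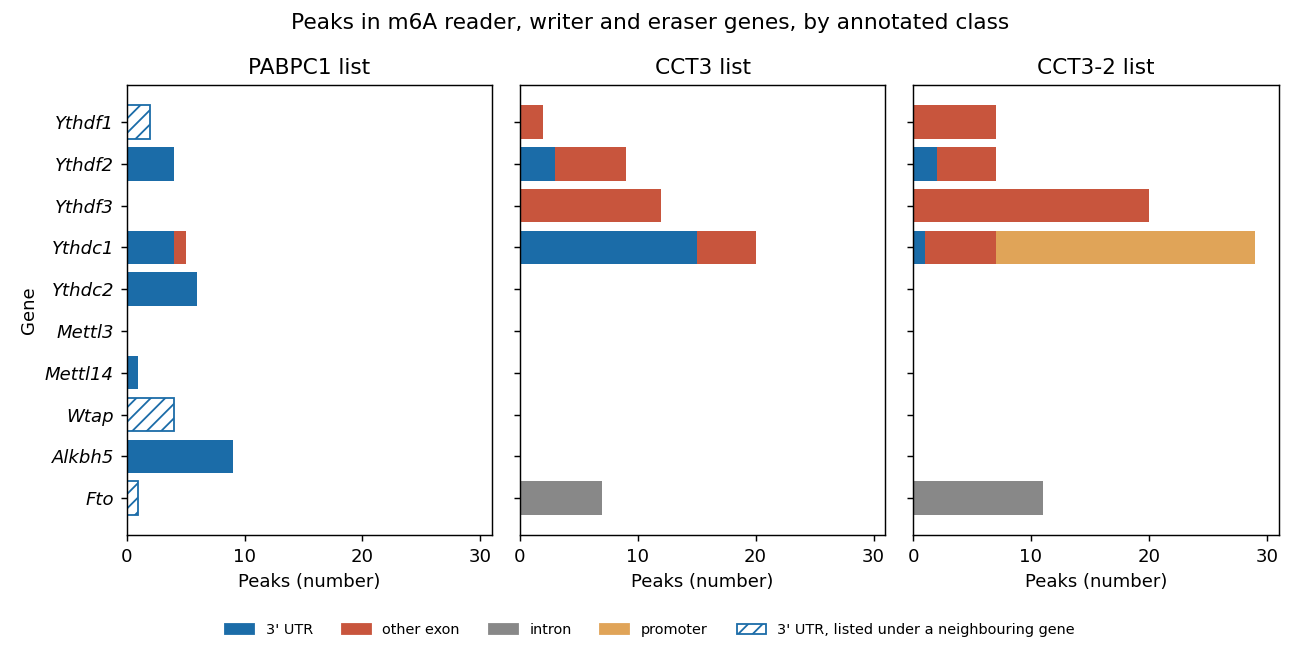
Number of peaks (x axis) in each of the 10 genes (rows) in the PABPC1, CCT3 and CCT3-2 lists, coloured by the class in the authors' annotation. Hatched bars are the 7 PABPC1 peaks that lie in the 3′ UTR of Ythdf1, Wtap or Fto but are listed under a neighbouring gene. CCT3 peaks are absent from Ythdc2, Mettl3, Mettl14, Wtap and Alkbh5.

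The classes differed between the lists, in these genes as over all peaks, but the promoter class was not assigned alike in the 3 lists. Of the 25 PABPC1 peaks by listed name, 24 were annotated as 3′ UTR (96%, 80.5 to 99.3%), and 1 as another exon. In the whole PABPC1 list the 3′ UTR share was 79.9%, and 13.2% of peaks were in the promoter class. Of the 50 CCT3 peaks, 18 were annotated as 3′ UTR (36%, 24.1 to 49.9%), 25 as other exons and 7 as introns. In the whole CCT3 list the shares were 18.0% in 3′ UTRs, 47.9% in other exons, 29.6% in introns and 0.925% in the promoter class. This difference was not tested, and 15 of the 18 CCT3 3′ UTR peaks belong to Ythdc1, where they lie kilobases before the end of the gene. The CCT3-2 list placed 3 of 74 peaks in 3′ UTRs (4.05%, 1.39 to 11.3%), 38 in other exons, 11 in introns and 22 in the promoter class, all of the last in Ythdc1. In the whole CCT3-2 list the shares were 16.5% in 3′ UTRs, 38.6% in other exons, 27.6% in introns and 16.2% in the promoter class. The 3′ UTR share of the 10 genes thus lay below that of the list for CCT3-2 and above it for CCT3. In Ythdc1 a CCT3 peak 40 bases from a listed start was annotated as 3′ UTR. The CCT3-2 peak over it, 38 bases from that start, was in the promoter class. How far such differences in annotation enter the class shares of the 2 proteins was not tested.

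Measured along the genome, 17 of the 32 PABPC1 peaks by position lay within 500 bases of the 3′ end of their gene span (53.1%, 36.4 to 69.1%). They include all 7 peaks listed under neighbouring genes. Of the 25 peaks by listed name, 10 did (40%, 23.4 to 59.3%). None of the 50 CCT3 peaks did, which allows a share of up to 6% by 3 counts of the total and 7.13% by the Wilson limit. None of the 74 CCT3-2 peaks did, which allows up to 4.05% and 4.93% by the same limits. Over the whole lists, counting peaks inside the span of their listed gene, the shares were 45.2% for PABPC1, 1.59% for CCT3 and 1.70% for CCT3-2. The set counted by listed name, which is the like set to these, was thus below the PABPC1 share of the list, and the set by position above it, and both intervals hold 45.2%. The median distance of PABPC1 peaks was likewise 1209 bases in the 10 genes by listed name and 423.5 by position, against 642 over the list. For CCT3 peaks it was 12196 bases in the 10 genes, against 15640 over the list, introns counted.

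**Figure D2:**
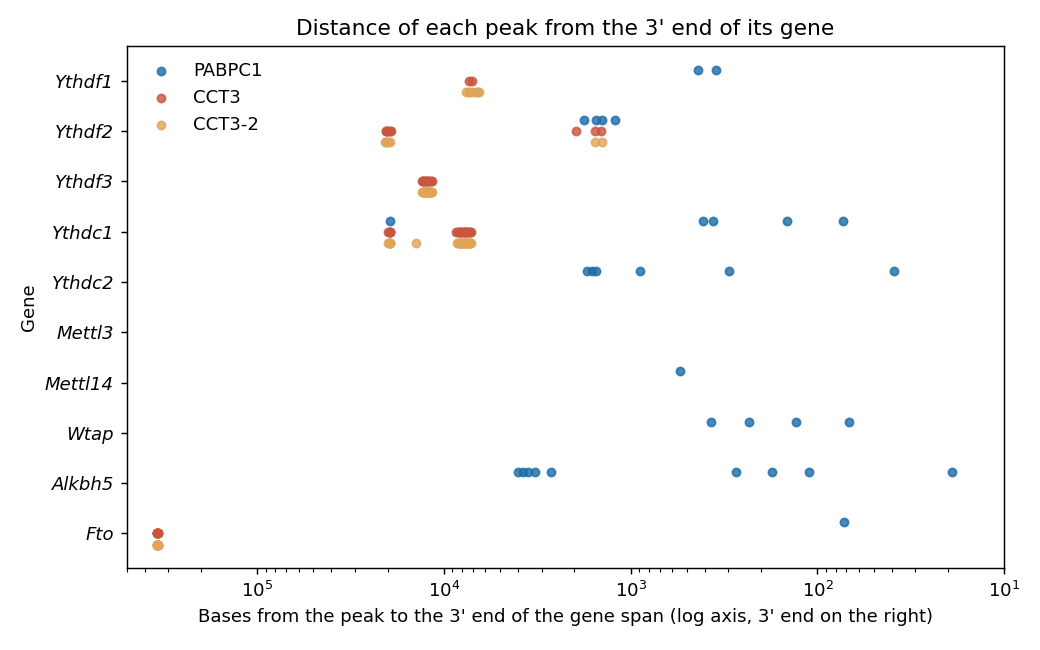
Distance from each peak to the 3′ end of its gene span in bases (log axis, 3′ end on the right) for the 10 genes (rows), with 1 point per peak and a colour per list. PABPC1 peaks lie between 19 and 3996 bases from the end except for 1 in Ythdc1 at 19384 bases, while all CCT3 peaks lie 1438 bases or more away.

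Folds in the 10 genes were close to those of the lists as a whole. The 32 PABPC1 peaks had a median log2 fold of 4.13 (range 3.03 to 6.77), against 4.19 over the list. The 50 CCT3 peaks had a median of 3.95 (3.02 to 7.17), against 4.05 over the list. The median −log10 p was 7.45 for these PABPC1 peaks, against 10.4 over the list, and 12.8 for the CCT3 peaks, against 7.68. With the log2 fold required to reach 4 and the −log10 p to reach 5, 10 of the 25 listed PABPC1 peaks, 21 of the 50 CCT3 peaks and 29 of the 74 CCT3-2 peaks were left. The whole lists kept 49.5%, 41.9% and 34.3%. The PABPC1 peaks left were 4 in Ythdc2, 4 in Alkbh5 and 2 in Ythdf2. The CCT3 peaks left were 16 in Ythdc1, 4 in Fto and 1 in Ythdf2.

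**Figure D3:**
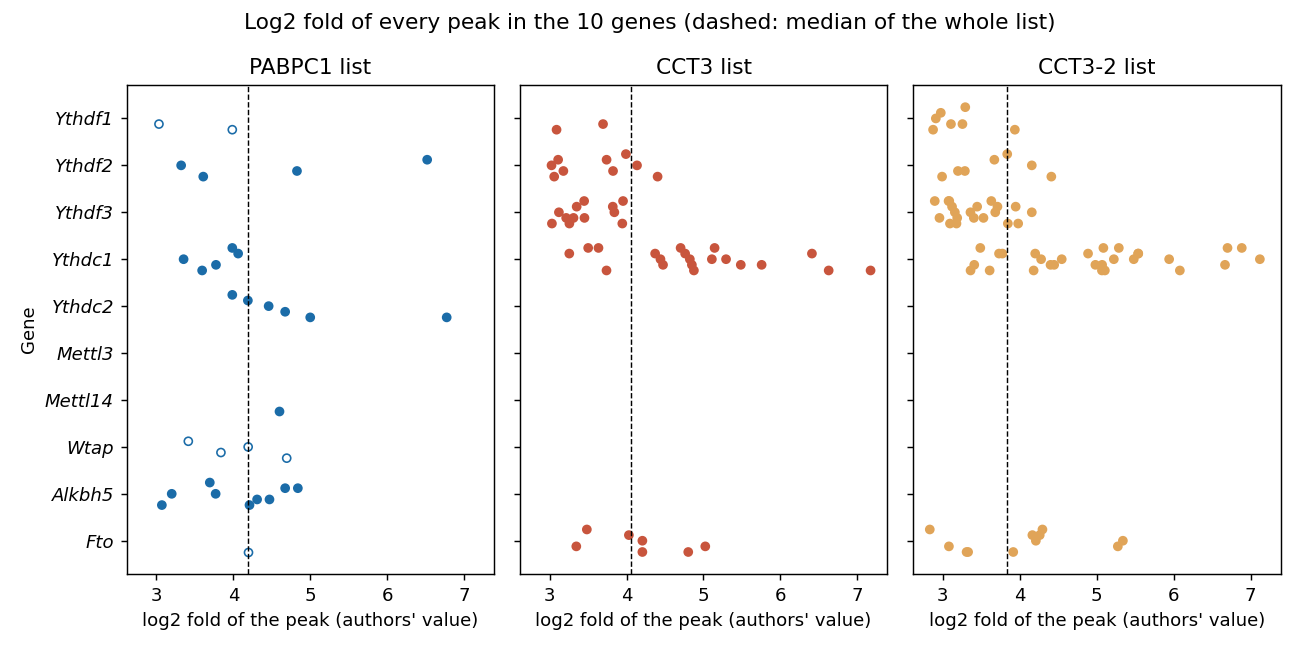
The authors' log2 fold (x axis) of every peak inside the 10 genes (rows), with 1 panel per list and 1 point per peak, and open points for peaks listed under a neighbouring gene. The dashed line is the median of the whole list (4.19, 4.05 and 3.83). All Ythdf1 and Ythdf3 points lie left of the line in the CCT3 list, and most Ythdc1 points lie right of it.

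Among the readers, Ythdf2 was the gene in which peaks of both proteins overlapped at more than 1 place, though the CCT3 peaks concerned were weak by p. It lies on the minus strand of chromosome 4 at 132184916 to 132212256 (mm10) and encodes the reader best known for delivering methylated mRNA to deadenylation and decay. Its 4 PABPC1 peaks were all annotated as 3′ UTR, with log2 folds of 6.52, 3.32, 4.83 and 3.61 from 5′ to 3′. The strongest, at 132186705 to 132186771, reached a −log10 p of 29.0, and a larger fold was listed for 4.16% of PABPC1 peaks. It ended 17 bases before the 3′ end of the transcript that the table lists for Ythdf2. The other 3 peaks ended 229, 340 and 563 bases beyond that transcript end, within the longer RefSeq span.

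CCT3 had 9 peaks in Ythdf2, 3 annotated as 3′ UTR and 6 in exon 4 of 5, and CCT3-2 had 2 and 5. The 3′ UTR peaks of CCT3 had log2 folds of 3.02, 3.18 and 4.40. The first overlap joined the PABPC1 peak at 132186348 to 132186399 (log2 fold 4.83, −log10 p 16.3) and the CCT3 peak at 132186354 to 132186391 (4.40 and 4.44). That CCT3 peak lay wholly inside the PABPC1 peak, sharing 38 bases. The second joined the PABPC1 peak at 132186459 to 132186512 (3.32 and 11.99) and the CCT3 peak at 132186469 to 132186533 (3.18 and 3.90), sharing 44 bases. The CCT3-2 list held peaks over the same 2 places, at 132186349 to 132186389 with a log2 fold of 4.41 and at 132186471 to 132186533 with 3.29, on the same minus strand as PABPC1. They shared 41 and 42 bases with the PABPC1 peaks. A larger −log10 p was listed for 81.2% and 87.9% of CCT3 peaks than for the 2 overlapping ones. At a log2 fold of at least 4 and a −log10 p of at least 5 no overlap was left in the 10 genes (count 0). The overlaps left in the whole lists at that threshold were not counted, so this 0 has no base to be read against. The third CCT3 peak in the 3′ UTR, at 132186890 to 132186956, lay 118 bases from the strongest PABPC1 peak and had no counterpart in CCT3-2.

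The strongest PABPC1 peak in Ythdf2 overlapped no CCT3 peak, and the CCT3 peaks with the highest −log10 p in the gene lay elsewhere, in exon 4. The 6 CCT3 peaks in exon 4 lay between 132204132 and 132205472, at least 19216 bases from the 3′ end, in a group of 2 and a group of 4. Their log2 folds ran from 3.06 to 4.14, with a −log10 p of up to 16.1. No PABPC1 peak lay there. Of the 9 CCT3 peaks in Ythdf2, 6 overlapped a CCT3-2 peak, the lowest share among the 5 genes with CCT3 peaks, and the other 4 genes had all of theirs overlapped.

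**Figure D4:**
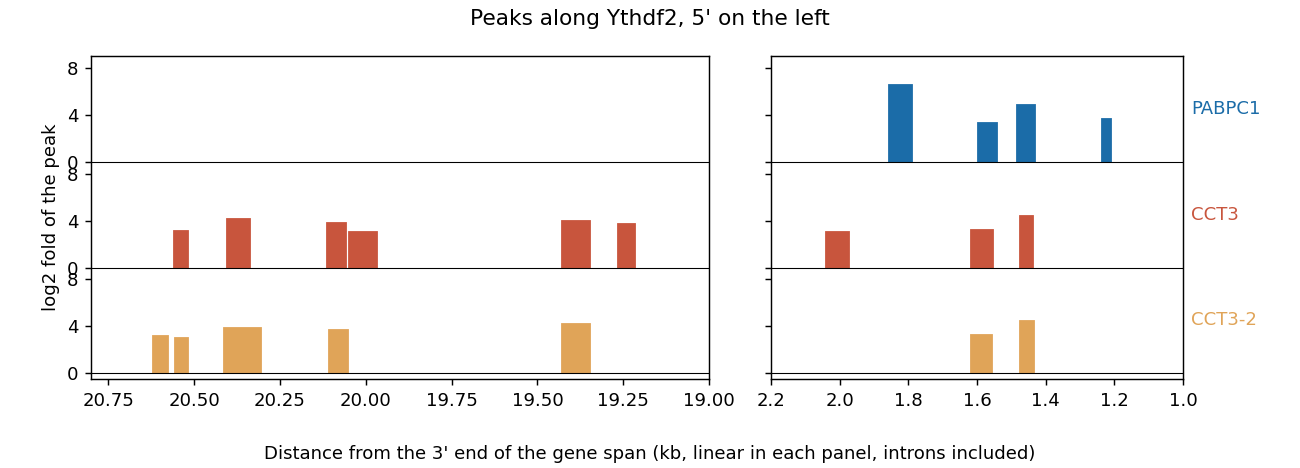
Peaks along Ythdf2 in the PABPC1, CCT3 and CCT3-2 lists (rows), as boxes whose width is the peak and whose height is the authors' log2 fold, against the distance from the 3′ end of the gene span (kb). The left panel shows exon 4, with CCT3 and CCT3-2 peaks only, and the right panel the 3′ UTR, where peaks of all lists coincide at 2 places.

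Overlap of this kind was uncommon in the lists as a whole. Of all CCT3 peaks, 0.669% overlapped a PABPC1 peak, and of all CCT3-2 peaks 0.922%, while in the 10 genes 3 of 50 and 3 of 74 did. The genes were chosen with the Ythdf2 overlap known, and 2 of these 3 peaks in each list are in Ythdf2. The higher share in the 10 genes is therefore only a description. An overlapping CCT3 peak was listed for 62 protein-coding genes (0.283%) and an overlapping CCT3-2 peak for 97 (0.443%). Peaks of PABPC1 and CCT3, overlapping or not, were listed for 678 protein-coding genes, and peaks of PABPC1 and CCT3-2 for 887. Among the 66 listed genes with an overlapping CCT3 peak, 60 had 1 such peak, 5 had 2, Ythdf2 among them, and 1 had 3. By its numbers of PABPC1, CCT3 and CCT3-2 peaks, Ythdf2 was nearest, among the other 65 of these genes, to Rnf146 with 4, 5 and 6 and Arrdc3 with 3, 6 and 6. Ccpg1 with 6, 5 and 7, Slc6a4 with 4, 4 and 6, and St8sia5 with 3, 6 and 9 came next. The likeness is the sum of absolute differences in the 3 counts, which was 5 for the nearest 2 genes.

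Ythdc1, the nuclear reader, had the most CCT3 peaks of the 10 genes and held the third overlap. It lies on the plus strand of chromosome 5 at 86803980 to 86836659. It had 5 PABPC1 peaks, 20 CCT3 peaks and 29 CCT3-2 peaks, and 2.94% of genes in the CCT3 list had more. The PABPC1 peaks comprised 4 in the 3′ UTR, between 73 and 412 bases from the end of the gene, with log2 folds from 3.35 to 4.06, and 1 in exon 4 of 16. That exonic peak spanned 86817223 to 86817275, at a log2 fold of 3.59 with −log10 p 5.24. The CCT3 peak at 86817230 to 86817269 lay wholly inside it, sharing 40 bases, with 3.26 and 4.12. The CCT3-2 peak at 86817233 to 86817288, on the same plus strand, shared 43 bases with it and had 3.49 and 7.05.

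Most CCT3 peaks of Ythdc1 lay together, 7197 to 8571 bases before the 3′ end of the gene, and overlapped no PABPC1 peak. A run of 16 CCT3 peaks began in exon 10 of 16 at 86828061 and ended at 86829462, covering 781 of 1402 bases (55.7%). Its median log2 fold was 4.99, against 4.09 for the other 4 CCT3 peaks of the gene, between 86816733 and 86817269. Of these 4 the table annotates 2 as exon 4 of a transcript of 16 exons, and 1 each as exon 4 and exon 5 of a transcript of 5. The highest peak spanned 86828186 to 86828240. Its log2 fold of 7.17, with −log10 p 28.5, ranked 14 in the whole CCT3 list. The highest −log10 p in the run was 51.9. CCT3-2 had 23 peaks over the same stretch, covering 915 of 1399 bases, with a median log2 fold of 5.11 and a highest of 7.12. Of these 23 peaks 7 pairs abutted with no base between them, so the numbers of peaks in the lists are not numbers of separate sites.

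The class given to this stretch depended on the table. The CCT3 table annotated 15 of the 16 peaks as 3′ UTR, although they lay 7197 bases or more from the 3′ end of the gene span. The CCT3-2 table placed 21 of its 23 peaks there in the promoter class, next to the start of a listed internal transcript, and 1 in the 3′ UTR. Neither table names the transcript whose 3′ UTR is meant. The 4 PABPC1 peaks annotated as 3′ UTR lay in the last 500 bases of the gene, so the shared class does not mark a shared place in Ythdc1.

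**Figure D5:**
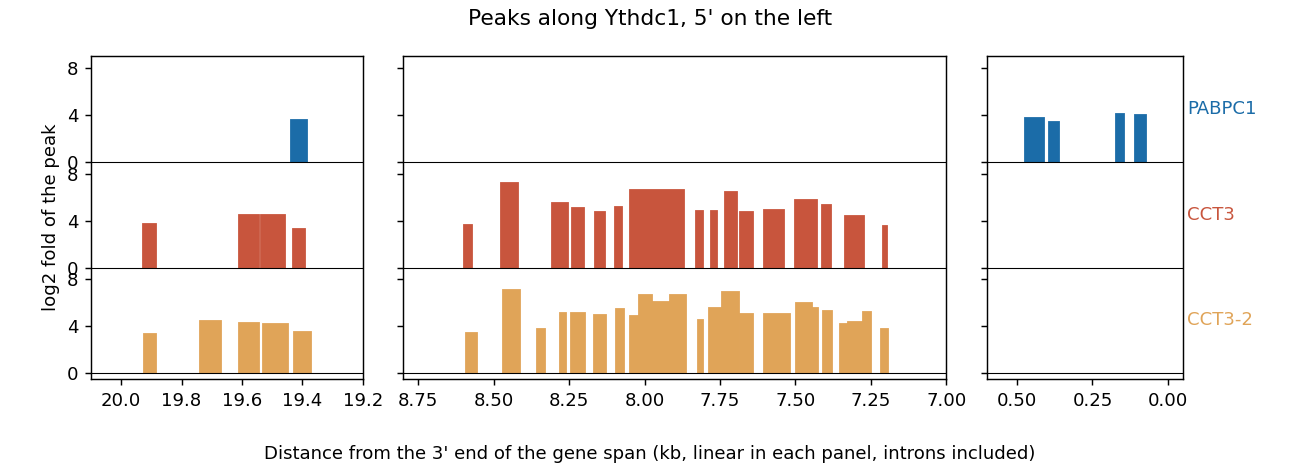
Peaks along Ythdc1 in the PABPC1, CCT3 and CCT3-2 lists (rows), drawn as boxes of the peak's width and the authors' log2 fold, against the distance from the 3′ end of the gene span (kb). The panels show the stretch around exon 4, the stretch from exon 10 and the 3′ end, where PABPC1 peaks alone are found, and 1 CCT3-2 peak 14046 bases from the end is outside the panels.

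Ythdf3 and Ythdf1, the cytoplasmic relatives of Ythdf2, carried CCT3 peaks in exon 4 of 5 and in no other exon. Ythdf3, on the plus strand of chromosome 3 at 16183148 to 16217037, had no PABPC1 peak. It had 12 CCT3 peaks within a stretch of 1527 bases, covering 742 of them (48.6%), with log2 folds from 3.03 to 3.95 (median 3.40) and a −log10 p of up to 37.9. CCT3-2 had 20 peaks within 1531 bases, with log2 folds from 2.89 to 4.16, and 9 pairs of them abutted. When peaks within 10 bases were merged, the CCT3 and CCT3-2 lists each had 11 peaks in Ythdf3.

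Ythdf1, on the minus strand of chromosome 2 at 180904377 to 180920936, had peaks of both proteins at separate places. The 2 PABPC1 peaks found by position lay in its 3′ UTR, 351 and 435 bases from the 3′ end, with log2 folds of 3.99 and 3.03. The 2 CCT3 peaks lay in exon 4, at least 7056 bases from the end, with log2 folds of 3.09 and 3.69. CCT3-2 had 7 peaks in that exon, with log2 folds from 2.87 to 3.94. The nearest PABPC1 and CCT3 peaks of Ythdf1 were 6573 bases apart. In exon 4 the 3 Ythdf genes thus had 2, 6 and 12 CCT3 peaks in Ythdf1, Ythdf2 and Ythdf3, with highest log2 folds of 3.69, 4.14 and 3.95. The genes are paralogs, and how reads that match more than 1 of them were assigned is not stated in the labels or tables.

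Ythdc2, the helicase reader of meiotic germ cells, was the reader with PABPC1 peaks alone. It lies on the plus strand of chromosome 18 at 44827730 to 44889720. Its 6 PABPC1 peaks were all annotated as 3′ UTR, from 1708 to 39 bases before the end of the gene. They ended 32259 to 33928 bases beyond the 3′ end of the transcript listed for Ythdc2, within the longer RefSeq span. The log2 folds were 5.0, 4.67, 4.46, 4.19, 3.99 and 6.77 from 5′ to 3′. The highest, at 44889585 to 44889681, had a −log10 p of 18.0 and lay 39 bases from the end of the gene. A larger fold was listed for 2.92% of PABPC1 peaks, and no other peak of the 10 genes in that list had a larger one. No CCT3 or CCT3-2 peak was listed in Ythdc2.

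The writers Mettl3, Mettl14 and Wtap had 0, 1 and 4 PABPC1 peaks by position and no CCT3 or CCT3-2 peak. Of all protein-coding genes, 9.59% had a CCT3 peak and 12.3% a CCT3-2 peak inside their span on either strand. Mettl3, the gene of the catalytic subunit, on chromosome 14 at 52294841 to 52308741, had no peak in any list. Mettl14, on the minus strand of chromosome 3 at 123368295 to 123385990, had 1 PABPC1 peak in its 3′ UTR, 542 bases from the end, with a log2 fold of 4.598. Its −log10 p was 3.58, exceeded by 94.0% of PABPC1 peaks. This peak ended 635 bases beyond the 3′ end of the transcript listed for Mettl14. Wtap, on the minus strand of chromosome 17 at 12966799 to 12992543, had the 4 PABPC1 peaks that the table lists as Acat2. They lay 68, 130, 233 and 372 bases from the 3′ end, with log2 folds of 4.69, 3.84, 4.19 and 3.41, and the highest −log10 p among them was 11.7.

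The erasers differed from each other. Alkbh5, on the plus strand of chromosome 11 at 60537683 to 60558512, had 9 PABPC1 peaks, the most of the 10 genes, and 1.91% of genes in that list had more. All 9 were annotated as 3′ UTR. Grouped where gaps were at most 500 bases, they formed 3 stretches, of 4 peaks between 3260 and 3996 bases from the end, 1 at 2664 and 4 between 19 and 272. The log2 folds were 3.07, 4.31, 3.20 and 4.84 in the first stretch, 3.69 for the lone peak, and 4.21, 4.47, 3.77 and 4.67 in the last. The ranges of the first and last stretches overlapped. No CCT3 or CCT3-2 peak was listed in Alkbh5.

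Fto, on the plus strand of chromosome 8 at 91313367 to 91668433, was the gene whose CCT3 peaks were intronic. Its 7 CCT3 peaks lay in intron 1 of 8, in a stretch of 2773 bases from 91324799 to 91327571 in a gene of 355 kb. Their log2 folds were 4.21, 5.02, 4.21, 4.03, 3.48, 4.80 and 3.35 from 5′ to 3′, and the highest −log10 p was 7.27. CCT3-2 had 11 peaks in the same stretch, on the plus strand of the gene, with log2 folds from 2.83 to 5.34. The PABPC1 peak found by position lay in the 3′ UTR, 72 bases from the end, with a log2 fold of 4.19 and −log10 p 4.82. It was at least 340746 bases from any CCT3 peak of the gene.

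The CCT3 and CCT3-2 lists named the same 5 genes and mostly the same places in them. Of the 50 CCT3 peaks in the 10 genes, 47 overlapped a CCT3-2 peak (94.0%, against 89.9% in the whole list), and 58 of the 74 CCT3-2 peaks overlapped a CCT3 peak (78.4%, against 64.3%). The 3 CCT3 peaks without a partner were all in Ythdf2. The log2 folds of the 59 overlapping pairs differed by a median of −0.003 (CCT3-2 minus CCT3), with differences from −1.74 to 0.85. These pairs share their library name, may share their input and were chosen by overlap, so they give no replicate error.

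Peaks of the 10 genes often shared their values exactly with other peaks of a list. Of the 32 PABPC1 peaks, 21 had the same fold and the same p as at least 1 other peak of that list, to within 1e-09, against 55.4% of the list. The Mettl14 peak was 1 of 37 with identical values. For CCT3 the count was 18 of 50, against 56.5% of the list, and for CCT3-2 24 of 74, against 57.8%.

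Of 22 other genes of the m6A pathway, 11 had PABPC1 peaks inside their span and on their strand, and 6 had CCT3-2 peaks so placed. By span on either strand, 25.8% of protein-coding genes had PABPC1 peaks and 12.3% had CCT3-2 peaks. CCT3 peaks, which carry no strand, lay inside the span of 5, against 9.59% of protein-coding genes. Those 5 were the writer complex genes Rbm15, Rbm15b, Virma and Cbll1, and Cnot1. The CCT3 peaks in Cnot1 are listed as 4930513N10Rik, and the CCT3-2 peaks in its span lie on the opposite strand. The writers Mettl3, Mettl14 and Wtap had no CCT3 peak. By listed name the counts were 13, 5 and 7, against 22.5%, 9.14% and 12% of protein-coding genes. Rbm15, which recruits the writer complex to RNA, had 28 CCT3 peaks, 26 of them annotated in other exons, with a highest log2 fold of 6.48. It had 57 CCT3-2 peaks up to 6.61 and 1 intronic PABPC1 peak at 3.92. Its paralog Rbm15b had 4 CCT3 peaks up to 4.64 and 6 CCT3-2 peaks up to 4.40, and the 2 PABPC1 peaks listed for it lie outside its span. Virma, a scaffold of the complex, had 2 CCT3 peaks up to 5.07 and 4 CCT3-2 peaks. Cbll1, a ubiquitin ligase in the complex, had 3 PABPC1 peaks in its 3′ UTR up to 4.27, with 1 CCT3 peak at 3.31 and 1 CCT3-2 peak at 3.20. Zc3h13, another component, had no peak.

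The remaining pathway genes included germ cell partners of YTHDC2. Rbm46, one of them, had 8 PABPC1 peaks up to a log2 fold of 7.04, with 3 annotated as 3′ UTR and 3 as intron. Introns held 1.09% of the whole PABPC1 list. Meioc, another partner, had 9 PABPC1 peaks in its 3′ UTR up to 5.84, all listed as Ccdc43. Hnrnpc had 7 PABPC1 peaks up to 7.39, listed as Snord58b, and Prrc2a, reported to bind m6A RNA, had 5 up to 5.11. Fmr1 had 6 PABPC1 peaks in its 3′ UTR up to 4.56, and the 4 CCT3 and 4 CCT3-2 peaks listed for it lie outside its span. Mettl16, a separate methyltransferase, had 2 PABPC1 peaks up to 5.0. Hnrnpa2b1 had 23 PABPC1 peaks up to 6.18, of which 22 were in the promoter class, Pcif1 had 2 inside its span and 1 listed for it outside, and Igf2bp3 had 1, listed as Malsu1. PABPC1 peaks listed for Igf2bp2, Zcchc4 and Trmt112 lie outside their spans, and those in the span of Mettl5 lie on the opposite strand. CCT3-2 alone had 3 intronic peaks in Igf2bp3, up to 3.63, and 1 exonic peak in Rbm46, at 2.99. The 3 CCT3 peaks in Cnot1, a deadenylase scaffold, carry no strand, and the 3 CCT3-2 peaks and 1 PABPC1 peak in its span lie on the opposite strand. In none of the 22 genes did a CCT3 peak overlap a PABPC1 peak (count 0, and likewise 0 for CCT3-2). These counts cover 38 CCT3 and 72 CCT3-2 peaks by span and strand. In the whole lists 0.669% of CCT3 and 0.922% of CCT3-2 peaks overlapped one, so a count of 0 is no contrast with the lists.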

How the data were processed

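Peaks were read from 3 tables, 1 for each immunoprecipitation. The deposited −log10 p values are the authors' and stop at 400, and the deposited log2 fold values are the authors' too. The header names both columns in the CCT3 table. The other tables leave these columns unnamed, and their ranges were used to read them likewise. Per the submitters' processing notes, bcl2fastq 2.20 and mm10 were used. For the aligner, the peak caller and duplicate removal, names and settings are not stated there or in the tables. Both values were at least 3 throughout the PABPC1 and CCT3 lists and in 83.7% of CCT3-2 peaks. The CCT3 table gives no strand.

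The 10 genes, the pathway and marker lists and the alternatives were chosen with earlier results of these data known. All 10 genes are named, as are the pathway genes with a peak. Genes were matched by listed symbol and, beside it, by RefSeq span (GRCm38.p6, the same build) with strand. Distances run from the peak's edge nearest the 3′ end. Overlaps used bedtools 2.31.1 with at least 1 base. Python 3.11.15, numpy 2.4.6, pandas 2.3.3 and matplotlib 3.10.9 were used. Tested on simulated data, all 200 overlaps placed among 10916 CCT3 peaks were found. Each placed peak took the exact coordinates of a PABPC1 peak, so partial overlaps were not tested. No test across samples was run, since there is 1 PABPC1 list and the CCT3 lists share a library name. Positions, widths and distances are in bases, and no genome sequence was used here.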

Additional observations from a re-analysis of the deposited data

How the results depend on the processing

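Of 43 alternative values for the 7 results over the 10 genes, 31 stayed within 1.5 times the main count or inside the interval of the main share. No paired analysis was possible because PABPC1 has 1 list and nothing was tested across samples. Where peaks had to reach a log2 fold of 4 and −log10 p 5, 3 genes had a PABPC1 peak (10 peaks, 100% in 3′ UTRs). At that threshold 3 genes had a CCT3 peak (21 peaks, 66.7% in 3′ UTRs), with 0 overlapping peaks. The 3 overlapping CCT3 peaks of the main count had −log10 p values of 4.44, 3.90 and 4.12, each below 5. The overlaps left in the whole lists at that threshold were not counted. The whole lists kept 49.5% of PABPC1 and 41.9% of CCT3 peaks. The share of all protein-coding genes with such peaks was not counted, so these numbers of genes have no base to be read against. By RefSeq span, 8 genes had a PABPC1 peak, and again 8 when the strand also had to match, an alternative chosen after seeing the data. The CCT3 share in 3′ UTRs was 4.05% with the CCT3-2 list and 4.62% with that list at the threshold of the others, where the Ythdc1 peaks are in the promoter class. It was 11.1% once peaks within 1000 bases of a listed start were left out, which removes most Ythdc1 peaks. The overlap count was 3 under 50% reciprocal overlap, merging within 10 bases, both CCT3-2 settings and same-strand overlap with CCT3-2. Read depth is unknown and limits every absence of a peak.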
